A study of Mus musculus with 22 samples.

Results

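Vehicle-treated macrophages were compared with vehicle-treated monocytes, 11 of the 22 RNA-seq libraries of the series, which were picked by their labels alone. The macrophages were 5 libraries (A to E) of primary monocytes from the spleens of male wild-type C57BL/6 mice, cultured with PMA (phorbol 12-myristate 13-acetate, an activator of protein kinase C) at 200 ng/mL for 5 days and then given vehicle for 24 h. The monocytes were 6 libraries (1 to 6) of the same kind of primary splenic monocytes, given vehicle for 24 h with no PMA named in their labels. Both groups share genotype, sex, tissue, culture medium (RPMI-1640 with serum) and vehicle. The groups differ in cell type by label, in exposure to PMA and in the days of culture before RNA was taken, and these cannot be told apart in what follows. The labels name no separate animals or cultures behind the replicates, so a p-value here is set against the spread between libraries, which may be technical. The other 11 libraries received oxidised low-density lipoprotein (ox-LDL) at 50 µg/mL for 24 h, and are used in the last comparison and in 1 alternative fit over all 4 groups.

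Monocytes are circulating and splenic myeloid cells that can leave the blood, stop dividing and become macrophages or cells that present antigen. Macrophages engulf particles, dying cells and modified lipoproteins, break them down in acid lysosomes, and export the cholesterol and iron they release. PMA stands in for diacylglycerol at protein kinase C and is widely used to make monocytes adhere and take on macrophage features in culture.

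Between 37330389 and 50257111 reads were assigned to genes in a macrophage library, and between 42022168 and 48315986 in a monocyte library, so depth was alike. Macrophage libraries held reads of 20977 ± 307 genes and monocyte libraries of 23860 ± 364 genes (SD, n = 5 and 6; exact permutation test, two-sided p = 0.00433, the smallest that 5 against 6 allows). The 10 most abundant genes took 20.1% ± 0.616 of a macrophage library and 11.8% ± 1.05 of a monocyte library, and mitochondrially encoded genes took 0.13% ± 0.0433 and 0.262% ± 0.0467, each with the same exact permutation p. The first principal component held 85.8% of the variance and separated the groups, and the second, with 5.92%, set monocyte libraries 5 and 6 apart from 1 to 4. Monocyte libraries also varied more among themselves: the median SD of log2 CPM over genes was 0.12 in macrophages and 0.213 in monocytes. Below, CPM is the read count scaled by the normalised library size, ± after a CPM is the SD over 5 macrophage or 6 monocyte libraries, ± after a log2 fold change is its standard error, and every log2 fold change is macrophages over monocytes.

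The labels were first set against marker genes of each cell type. Macrophage markers summed to 15919 to 18458 CPM in the macrophages, above the 5899 to 9987 CPM of the monocytes, and 12 of the 18 markers tested were called higher past 2-fold, with 2 lower. Over all genes tested, 9.22% were called higher past 2-fold and 17.6% lower (edgeR quasi-likelihood test against a 2-fold change, adjusted p under 0.05). Adgre1 (ENSMUSG00000004730, chr17:57358691-57483527, forward strand), which encodes the F4/80 antigen of mouse macrophages, had 1418, 1300.0, 1058, 1155 and 1323 CPM in macrophages A to E, against 164 to 331 CPM in the 6 monocyte libraries (median 281 CPM). Csf1r, the receptor for the growth factor that macrophages live on, had 5095, 4574, 3360.0, 3868 and 5765 CPM in macrophages A to E, against 591 to 1219 CPM in the 6 monocyte libraries (median 782 CPM). For both genes the groups did not overlap. Cd68, a lysosomal glycoprotein of macrophages, averaged 2898 ± 174 CPM in macrophages and 807 ± 126 CPM in monocytes (log2 fold change 1.84 ± 0.12, edgeR adjusted p = 1.56e-08). Siglec1, the sialoadhesin of tissue macrophages, averaged 108 ± 11.9 CPM in macrophages and 3.8 ± 0.802 CPM in monocytes (log2 fold change 4.82 ± 0.17, edgeR adjusted p = 4.17e-11). The 2 markers that fell were Timd4, a phosphatidylserine receptor of resident macrophages (0.573 ± 0.236 against 13.3 ± 2.06 CPM, log2 fold change -4.53 ± 0.27), and Marco, a scavenger receptor of marginal-zone macrophages (16.7 ± 8.05 against 105 ± 50.9 CPM, log2 fold change -2.65 ± 0.39). Markers of red pulp macrophages gave no such rise: 1 of 7 was called higher and 3 were called lower at any size of change (28.5% and 35.1% over all genes), and Spic, the transcription factor that defines that cell, averaged 22.1 ± 6.28 CPM in macrophages and 91.2 ± 28.2 CPM in monocytes (log2 fold change -2.05 ± 0.25, edgeR adjusted p = 6.96e-06).

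The libraries labelled monocytes carried transcripts of several other cell types. Classical monocyte markers summed to 272 to 767 CPM in macrophages and 1015 to 5005 CPM in monocytes, with 9 of 11 markers called lower in macrophages. Ly6c2, the classical monocyte surface antigen, had 2.22, 2.22, 0.736, 0.502 and 0.808 CPM in macrophages A to E, against 27.2 to 291 CPM in the 6 monocyte libraries (median 44.6 CPM), with a log2 fold change of -6.41 ± 0.82 (edgeR adjusted p = 1.14e-05), and without monocyte libraries 5 and 6, the 2 highest, its log2 fold change was -4.91. Ccr2, the chemokine receptor for leaving the marrow, was low throughout, at 6.84 to 12.3 CPM in macrophages and 9.97 to 30.9 CPM in monocytes. These ranges overlap, and it was called lower (log2 fold change -1.2 ± 0.29, edgeR adjusted p = 0.002425). Dendritic cell markers were more abundant in the monocytes than classical monocyte markers: they summed to 609 to 678 CPM in macrophages and 9525 to 15267 CPM in monocytes. Much of that sum was Ccr7, the chemokine receptor of maturing dendritic cells, with 0.211, 1.07, 3.68, 4.57 and 2.29 CPM in macrophages A to E, against 5625 to 8524 CPM in the 6 monocyte libraries (median 8012 CPM). Flt3, a growth-factor receptor of dendritic cell precursors, averaged 0.131 ± 0.164 CPM in macrophages and 323 ± 48.8 CPM in monocytes (edgeR adjusted p = 5.8e-10). Of 13 dendritic cell markers tested, 10 were called lower in macrophages and 1 higher. The 1 higher was Itgax, the CD11c chain, at 157 ± 53.6 CPM in macrophages and 56.5 ± 8.1 CPM in monocytes. The name monocytes is kept below as the label gives it.

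Neutrophil markers summed to 175 to 304 CPM in macrophages, to 5887 to 6281 CPM in monocyte libraries 1 to 4, and to 47279 and 33503 CPM in monocyte libraries 5 and 6. Erythroid markers summed to 1.06 to 2.97 CPM in macrophages and to 452 to 11120 CPM in monocytes, with monocyte libraries 1 and 2 lowest at 886 and 452 CPM. B cell markers summed to 36.1 to 46 CPM in macrophages and 272 to 1043 CPM in monocytes, and T cell markers to 193 to 351 CPM and 534 to 895 CPM. NK cell markers summed to 0.0449 to 0.237 CPM in macrophages and 7.08 to 18.5 CPM in monocytes. For none of these 5 lists, nor for the dendritic cell markers, did the groups overlap, and their part in the results below was not tested. In bulk RNA, fewer cells of a type and less RNA per cell cannot be told apart. Of 11 T cell markers tested 8 were called lower and 2 higher. Cd3e, a defining gene of T cells, averaged 0.011 ± 0.0245 CPM in macrophages and 11.9 ± 7.68 CPM in monocytes, while the costimulatory receptor Cd28 and the cytokine receptor chain Il7r were the 2 higher, at 51.9 ± 11.3 against 7.81 ± 1.92 CPM and 146 ± 36.6 against 63.4 ± 7.47 CPM in macrophages against monocytes. Plasma cell markers summed to 389 to 425 CPM in macrophages and 200.2 to 260.0 CPM in monocytes, without overlap. The members went both ways, so the sum is not the direction of the list. Of 6 tested, 3 were called higher and 2 lower, with a median log2 fold change of -0.02. Platelet, eosinophil, endothelial and nonclassical monocyte markers had ranges that overlapped. Their sums were 94.5 to 277 CPM in macrophages and 35.6 to 110.1 CPM in monocytes for platelets, 13 to 30.8 and 15.9 to 32.7 CPM for eosinophils, 45.2 to 83.4 and 45.9 to 102 CPM for endothelium, and 528 to 1157 and 870.3 to 1026 CPM for nonclassical monocytes. Of the 9 nonclassical monocyte markers tested, 6 were called lower and 2 higher, with a median log2 fold change of -1.56. Stromal markers summed to 1.12 to 4.2 CPM in macrophages and 11.7 to 65.1 CPM in monocytes, and 3 of the 8 were tested. Nearly all of the monocyte sum was Acta2, smooth muscle actin. It had 63.8 and 58.1 CPM in monocyte libraries 5 and 6, and 9.49 to 18.3 CPM in libraries 1 to 4. The sum is therefore not read as a sign of stromal cells. Mast cell and basophil markers summed to 0.561 to 1.78 CPM in macrophages and 221 to 460 CPM in monocytes, nearly all of it Kit, the stem cell factor receptor, which averaged 0.128 ± 0.124 CPM in macrophages and 336 ± 95 CPM in monocytes (edgeR adjusted p = 3.45e-10).

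**Figure D1:**
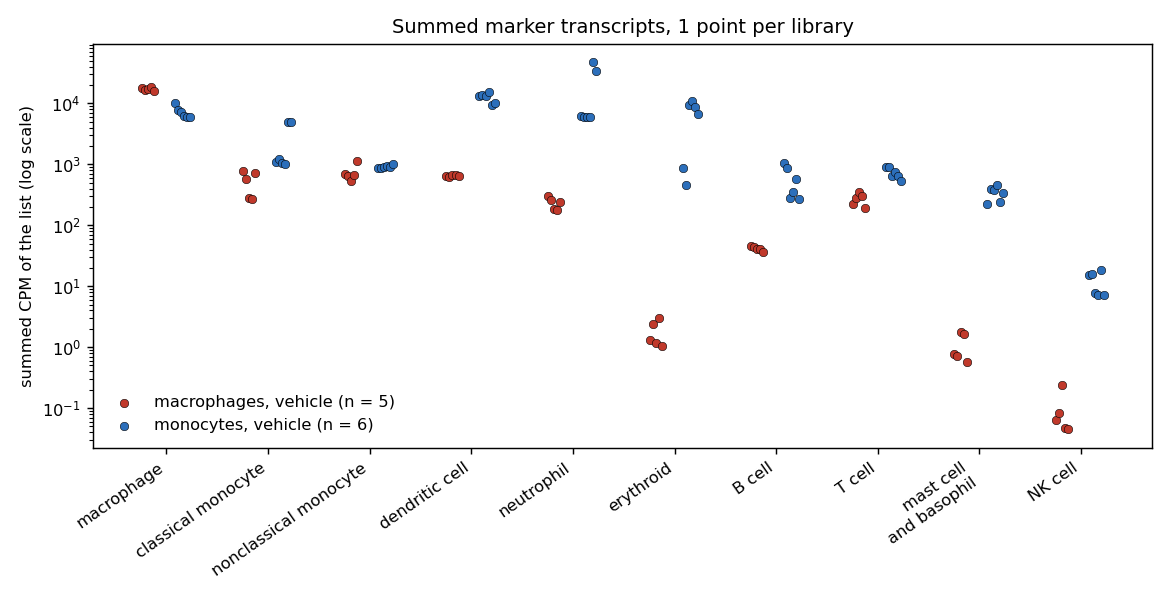
Summed CPM (log scale) of 10 marker lists, with 1 point per library; macrophages (red, n = 5) stand left of monocytes (blue, n = 6) in each list. Macrophage markers are higher in every macrophage library, neutrophil markers reach 47279 and 33503 CPM in 2 monocyte libraries, and erythroid markers lie between 1.06 and 2.97 CPM in macrophages.

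Across all genes, 16288 passed the filter on low counts and 10369 of them were called different (63.7%, edgeR quasi-likelihood test, adjusted p under 0.05). Of these, 4645 were higher in macrophages (28.5% of genes tested) and 5724 were lower (35.1%). The stricter test, which asks for a change past 2-fold, called 1502 genes higher (9.22%) and 2865 lower (17.6%). The ranges of the groups did not overlap for 22.1% of genes in the direction of higher and 26.7% in the direction of lower. With most genes called, a gene or list is read below against these shares. The median log2 fold change was -0.089, and 33 genes were called at least 32-fold higher, against 1033 at least 32-fold lower. Genes called past 2-fold higher were protein coding in 92.5% of cases and had a median length of 4718 bases. Those lower were protein coding in 70.9% and had a median of 3012 bases, against 77.1% and 3587 bases over all genes tested. Among tested genes, 338 had no read in any macrophage library, against 1 gene with no read in any monocyte library. A gene with no read in 1 group passed the filter through the other group alone, and the prior count sets its fitted fold change. The 32-fold falls include such genes, Apol7a among them. The imbalance in these counts and in the 32-fold counts is therefore not read as a result.

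**Figure D2:**
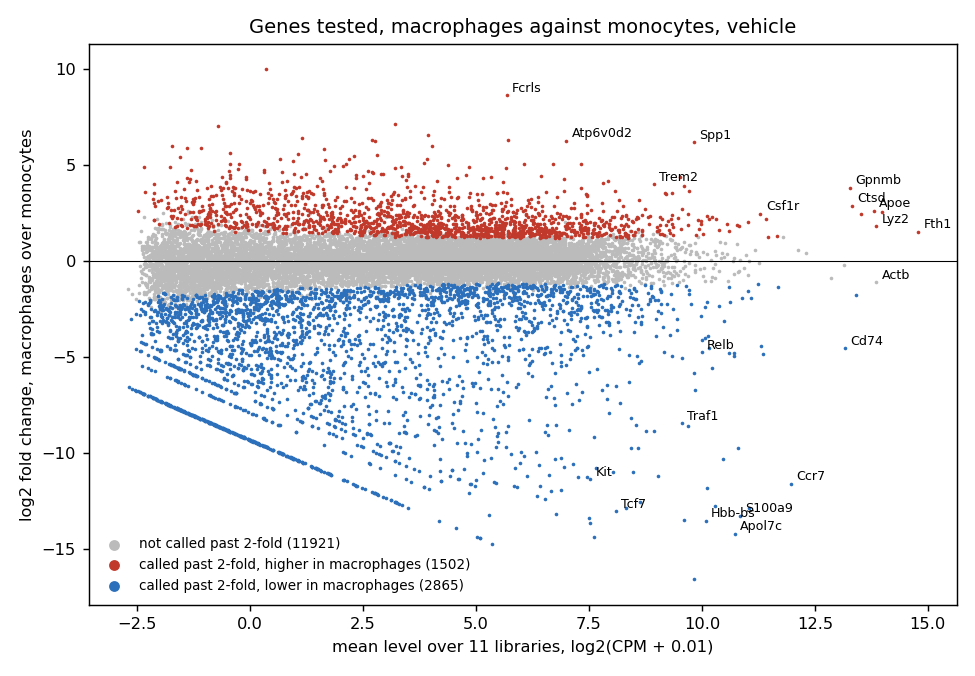
Each point is 1 of the 16288 genes tested, by its mean level over the 11 libraries (x axis, log2 of CPM + 0.01) and its log2 fold change of macrophages over monocytes (y axis); red genes were called past 2-fold higher in macrophages (1502), blue genes lower (2865). The straight lower edge on the left is made of genes with no read in macrophages, whose fitted fold change is set by the prior count.

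The 12 genes with the largest rises that passed the rule for naming were Fcrls, Mamdc2, Npy, Apbb2, Adra1a, Atp6v0d2, Plscr4, Spp1, Speg, Cpeb1, Plxna2 and Cd276. Fcrls, an Fc receptor-like protein known as a marker of mouse microglia, had 175, 100.5, 19.8, 25.6 and 240.3 CPM in macrophages A to E, against 0.135 to 0.606 CPM in the 6 monocyte libraries (median 0.24 CPM), lowest in macrophages C and D and still above every monocyte library. Npy, a neuropeptide also made by some macrophages, had 25, 28.3, 44.1, 44 and 24.4 CPM in macrophages A to E, and in the monocytes it ran between 0.045 and 0.543 CPM with a median of 0.393 CPM. Spp1, or osteopontin, a secreted glycoprotein that binds integrins, had 2004, 1855, 2232, 2140.0 and 1603 CPM in macrophages A to E, against 13.9 to 52.8 CPM in the 6 monocyte libraries (median 18.1 CPM). These 3 genes rose by a log2 fold change of 8.61 ± 0.76, 6.55 ± 0.4 and 6.15 ± 0.41. Mamdc2 averaged 20.1 ± 4.58 CPM in macrophages and 0.142 ± 0.115 CPM in monocytes, and Apbb2, an adaptor that binds the amyloid precursor protein, averaged 113 ± 21.7 CPM in macrophages and 1.44 ± 0.864 CPM in monocytes. Adra1a, an alpha-1 adrenergic receptor, averaged 14 ± 2.63 CPM in macrophages and 0.174 ± 0.185 CPM in monocytes, and Plxna2, a semaphorin receptor, averaged 32.3 ± 8.18 CPM in macrophages and 0.834 ± 0.477 CPM in monocytes. Cd276, an immune checkpoint ligand of the B7 family, had 15.7, 21.4, 40.2, 48.2 and 26.1 CPM in macrophages A to E, against 0.263 to 1.48 CPM in the 6 monocyte libraries (median 0.932 CPM). Speg and Cpeb1 had log2 fold changes of 5.95 ± 0.44 and 5.52 ± 0.55, and Plscr4, a phospholipid scramblase, averaged 14.6 ± 5.28 CPM in macrophages and 0.194 ± 0.201 CPM in monocytes. The rule for naming admitted only genes with every macrophage library above every monocyte library, so that trait of the 12 is not a result. It held for 22.1% of all genes tested. Leaving out monocyte libraries 5 and 6 gave log2 fold changes of 7.91 for Mamdc2 and 6.9 for Spp1, and leaving out libraries 1 and 2 gave 6.96 for Apbb2 and 5.9 for Plxna2, against 7.1 ± 0.43, 6.15 ± 0.41, 6.29 ± 0.36 and 5.28 ± 0.35 with all libraries.

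The 12 genes with the largest falls were close to absent from the macrophages: Retnlg, Asprv1, Apol7c, Apol7a, Hbb-bs, Hba-a2, S100a9, Ptk6, Cxcr2, Tcf7, Ngp and Hbb-bt. Of these, 4 are neutrophil markers. S100a9, a subunit of calprotectin, had 0, 0.712, 0.878, 0.143 and 0.0225 CPM in macrophages A to E, against 820.1 to 10168 CPM in the 6 monocyte libraries (median 1078 CPM), and Retnlg, a resistin-like protein of neutrophils, averaged 0.0143 ± 0.0321 CPM in macrophages and 1658 ± 2048 CPM in monocytes (edgeR adjusted p = 2.92e-07). Ngp, a granule protein, averaged 0.52 ± 0.671 CPM in macrophages and 3880.3 ± 3828 CPM in monocytes, and Cxcr2, the chemokine receptor of neutrophils, averaged 0.019 ± 0.0295 CPM in macrophages and 201 ± 192 CPM in monocytes. A further 3 are globin chains: Hbb-bs had 0.0422, 0.11, 0.0949, 0.55 and 0.0449 CPM in macrophages A to E, against 144 to 3433 CPM in the 6 monocyte libraries (median 2527 CPM), and Hba-a2 and Hbb-bt stood at 0.123 ± 0.185 against 1435 ± 1066 CPM and 0.0755 ± 0.0304 against 585 ± 418 CPM in macrophages against monocytes. In both sets the monocyte libraries split as their marker sums did, with S100a9 highest in libraries 5 and 6 and Hbb-bs lowest in libraries 1 and 2. Near-identical copies of the globin genes can share reads, so the split between them is uncertain.

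The other 5 of those genes were even among the monocytes. Apol7c (ENSMUSG00000044309, chr15:77524852-77533316, reverse strand), a member of the apolipoprotein L family, had 0.169, 0.0548, 0.285, 0.191 and 0.0898 CPM in macrophages A to E, against 2492 to 3714 CPM in the 6 monocyte libraries (median 3149 CPM) (edgeR adjusted p = 2.18e-12). Apol7a, of the same family, had no read in any macrophage library and 32.4 to 58.6 CPM in the monocytes, at least 3049-fold lower in macrophages when the floor is set at 3 reads over the group. Tcf7, a transcription factor best known from T cells, had 0.0422, 0.0274, 0, 0.0718 and 0.135 CPM in macrophages A to E, against 379.6 to 626 CPM in the 6 monocyte libraries (median 515 CPM). Asprv1, a retroviral-like protease, averaged 0.0138 ± 0.0203 CPM in macrophages and 357 ± 60.5 CPM in monocytes, and Ptk6, a non-receptor tyrosine kinase, averaged 0.00449 ± 0.01 CPM in macrophages and 71.2 ± 14.4 CPM in monocytes. Besides Apol7a, the most abundant genes with no macrophage read were Pdcd1, the PD-1 receptor, at 14.8 to 24.2 CPM in monocytes and at least 1460-fold lower in macrophages. Mrgpra2b, Sema4f and Kctd14 came next, at least 1323-fold, 1271-fold and 1229-fold lower. In the other direction B3galt5, Sncaip, Edar, Yipf7 and Ptx3 had no monocyte read, and none of them averaged over 1.09 CPM in macrophages or passed the filter.

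Lysosomal genes were higher in macrophages almost without exception. Of 34 genes for lysosomal enzymes and membrane proteins, 31 were called higher and none lower, 19 of them past 2-fold, with a median log2 fold change of 1.51. Summed, they made up 39213 to 52915 CPM of a macrophage library and 11991 to 17308 CPM of a monocyte library. Naglu, the N-acetylglucosaminidase that degrades heparan sulfate, had 492, 480.5, 498, 578 and 495 CPM in macrophages A to E, against 54.6 to 104 CPM in the 6 monocyte libraries (median 85 CPM). Psap, the precursor of the saposins that help break down sphingolipids, had 13502, 20194, 23799.5, 26000.1 and 21463 CPM in macrophages A to E, against 2684 to 7457 CPM in the 6 monocyte libraries (median 3339.8 CPM). Library 6 was the highest of the monocytes for both Psap and Gpnmb, and no monocyte library reached the macrophages. Sgsh, the sulfamidase that acts beside Naglu, averaged 93.2 ± 8.48 CPM in macrophages and 16.2 ± 1.85 CPM in monocytes (log2 fold change 2.52 ± 0.11, edgeR adjusted p = 3.04e-10). Glb1, the lysosomal beta-galactosidase, averaged 200.1 ± 23 CPM in macrophages and 36.2 ± 10.6 CPM in monocytes (log2 fold change 2.46 ± 0.18, edgeR adjusted p = 6.04e-08). Of the 3 genes not called, Cd63, a tetraspanin of late endosomes, had a log2 fold change of 0.12 ± 0.12, and it is named here because it is an exception.

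Cathepsins, the proteases of the lysosome, did not move as a block: 8 of 17 cathepsins and cystatins were called higher and 6 lower, with a median of 0.32. Ctsd (ENSMUSG00000007891, chr7:142375911-142388038, reverse strand), the main aspartic protease, had 18511, 18246, 19739, 21246 and 19065 CPM in macrophages A to E, against 2158 to 3653 CPM in the 6 monocyte libraries (median 2619 CPM), with a log2 fold change of 2.86 ± 0.15 (edgeR adjusted p = 1.51e-09). Ctsb had 28025, 28469, 32599.6, 33833 and 25084 CPM in macrophages A to E, against 3559 to 6876 CPM in the 6 monocyte libraries (median 4896 CPM), with a log2 fold change of 2.52 ± 0.17 (edgeR adjusted p = 2.95e-08). Ctsl and Ctsf, also cysteine proteases, were 11.7-fold and 19.7-fold higher, at 1285 ± 314 against 110.2 ± 34.9 CPM and 49.4 ± 6.21 against 2.51 ± 2.1 CPM. Without monocyte libraries 1 and 2, where library 1 held the highest Ctsf value, its log2 fold change was 5.14, in place of 4.30. Cst3, the secreted inhibitor cystatin C, averaged 1524 ± 177 CPM in macrophages and 2551 ± 389.5 CPM in monocytes and fell (log2 fold change -0.74 ± 0.13, edgeR adjusted p = 0.00019), as did Ctsh (log2 fold change -0.73 ± 0.12, edgeR adjusted p = 0.0001287). Ctse, an aspartic protease of the endosome, averaged 2.4 ± 0.746 CPM in macrophages and 16.4 ± 12.9 CPM in monocytes (log2 fold change -2.76 ± 0.5, edgeR adjusted p = 0.0002561), and without monocyte libraries 5 and 6 its log2 fold change was -1.76.

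The vacuolar proton pump, which acidifies lysosomes, rose in part. Of its 18 subunit and accessory genes 12 were called higher and none lower, but 4 passed 2-fold. The median log2 fold change was 0.63. Atp6v0d2 (ENSMUSG00000028238, chr4:19876841-19922605, reverse strand), a subunit isoform of the membrane sector known from osteoclasts and macrophages, had 327, 331, 312, 244 and 165 CPM in macrophages A to E, against 2.15 to 4.94 CPM in the 6 monocyte libraries (median 3.94 CPM). Its paralogue Atp6v0d1, added here for the contrast, was at 292 ± 14.4 against 283 ± 12.2 CPM and was not called (log2 fold change 0.05 ± 0.082). Atp6v0a1 and Atp6v1a, the membrane a subunit and the catalytic A subunit, were 4.09-fold and 3.61-fold higher in macrophages, and Atp6v0c, the proton-carrying ring, 1.63-fold higher.

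Many lysosomal genes share the letters TCACGTG near their start, the core of the E-box read by the MiT/TFE transcription factors. Promoters from 250 bases before to 50 bases after the start (RefSeq, GRCm38.p6, the build of the files) were available for 27 of the 34 lysosomal genes, 12 of the 17 cathepsins and cystatins, and 12 of the 18 pump genes. TCACGTG or its reverse complement CACGTGA, searched on both strands, was present in 8, 3 and 4 of them, and in 6.81% of the 10483 promoters matched to the 16288 genes tested. Because under 80% of these genes have a promoter in the table, the shares here are a description of the promoters in the table, with no comparison drawn between sets. Of the 15 genes with the motif, 12 were called higher, 6 of them past 2-fold, and none lower. In the lists they come from, 31 of 34 lysosomal genes, 8 of 17 cathepsins and cystatins, and 12 of 18 pump genes were called higher. Past 2-fold these were 19, 6 and 4. The counts of genes with the motif are therefore not read as a result about the motif. The 4 with the largest rise are shown because their transcripts carry the change described above, 5′ to 3′ on the gene's own strand with the motif in capitals.
Ctsd (chr7:142387778-142388077, reverse strand): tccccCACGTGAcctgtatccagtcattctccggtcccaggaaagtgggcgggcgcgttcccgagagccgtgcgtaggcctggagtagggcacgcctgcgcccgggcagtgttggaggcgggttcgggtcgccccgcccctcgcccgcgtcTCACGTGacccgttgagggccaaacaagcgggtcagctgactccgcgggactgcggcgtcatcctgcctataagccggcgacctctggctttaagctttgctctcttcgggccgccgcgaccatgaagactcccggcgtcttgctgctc
Naglu (chr11:101069844-101070143, forward strand): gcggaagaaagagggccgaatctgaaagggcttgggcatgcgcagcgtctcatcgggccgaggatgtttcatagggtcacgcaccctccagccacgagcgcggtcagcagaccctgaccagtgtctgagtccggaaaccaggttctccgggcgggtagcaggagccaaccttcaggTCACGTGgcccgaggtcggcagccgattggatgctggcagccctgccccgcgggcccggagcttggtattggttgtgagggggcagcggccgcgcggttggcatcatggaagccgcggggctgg
Sgsh (chr11:119355461-119355760, reverse strand): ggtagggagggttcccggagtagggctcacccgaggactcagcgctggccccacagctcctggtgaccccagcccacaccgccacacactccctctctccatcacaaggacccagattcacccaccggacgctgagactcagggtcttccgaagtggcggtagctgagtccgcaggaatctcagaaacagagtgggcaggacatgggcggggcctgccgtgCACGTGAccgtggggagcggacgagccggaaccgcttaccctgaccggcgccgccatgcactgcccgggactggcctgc
Glb1 (chr9:114400828-114401127, forward strand): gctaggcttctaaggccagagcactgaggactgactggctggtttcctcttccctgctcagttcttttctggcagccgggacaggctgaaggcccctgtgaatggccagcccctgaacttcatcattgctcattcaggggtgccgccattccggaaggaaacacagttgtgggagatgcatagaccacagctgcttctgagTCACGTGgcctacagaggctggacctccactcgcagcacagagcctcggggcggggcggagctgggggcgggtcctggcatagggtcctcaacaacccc
Ctsd holds the motif more than once, starting 245 bases before the start at its far end, while in Naglu, Sgsh and Glb1 it starts 74, 29 and 49 bases before it. A match of letters is not evidence that a factor binds there. Of the factors that read this motif, Mitf had 69.6, 72.5, 62.9, 64.4 and 67.1 CPM in macrophages A to E, against 5.55 to 17.9 CPM in the 6 monocyte libraries (median 12.2 CPM), with a log2 fold change of 2.46 ± 0.24 (edgeR adjusted p = 9.34e-07). Tfe3 and Tfeb, named here because they read the same letters, went opposite ways, with log2 fold changes of 0.59 ± 0.12 and -0.65 ± 0.091. Tfec, the last of the family, was at 7.27 ± 2.62 against 3.23 ± 0.66 CPM (log2 fold change 1.17 ± 0.24).

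Genes of lipid-laden macrophages were among the most abundant that rose. Of 18 genes known from lipid-associated macrophages, 14 were called higher and none lower, 12 past 2-fold, with a median of 1.97. They summed to 106721 to 126817 CPM in macrophages and 19828 to 27677 CPM in monocytes. Gpnmb (ENSMUSG00000029816, chr6:49036546-49070929, forward strand), a transmembrane glycoprotein of lysosomes and melanosomes, had 19562, 19332, 21155, 23593 and 17273 CPM in macrophages A to E, against 1136 to 2309 CPM in the 6 monocyte libraries (median 1315 CPM), with a log2 fold change of 3.79 ± 0.19 (edgeR adjusted p = 1.27e-09). Trem2, a lipid-sensing receptor, had 1125, 914, 929.9, 1045 and 987 CPM in macrophages A to E, against 42.3 to 97.1 CPM in the 6 monocyte libraries (median 57.7 CPM). Cd36, the scavenger receptor that takes up oxidised lipoproteins, had 1669, 1633, 1617, 1316 and 1205 CPM in macrophages A to E, against 223 to 376 CPM in the 6 monocyte libraries (median 243 CPM). No macrophage library overlapped a monocyte library in any of the 3. Plin2, the coat protein of lipid droplets, was 2.54-fold higher (1387 ± 138 against 547 ± 51.6 CPM).

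Receptors for modified lipoproteins were split. Of 15 scavenger and lipoprotein receptors tested 9 were called higher and 5 lower, with a median of 1.47. Stab1, a scavenger and clearance receptor, averaged 1157 ± 409.7 CPM in macrophages and 101 ± 40.0 CPM in monocytes (log2 fold change 3.52 ± 0.3, edgeR adjusted p = 2.53e-07). Msr1, the class A scavenger receptor, had 206, 211, 231, 209 and 244 CPM in macrophages A to E, against 53.6 to 114 CPM in the 6 monocyte libraries (median 77.4 CPM), with a log2 fold change of 1.47 ± 0.16 (edgeR adjusted p = 2.32e-06). Olr1, the lectin-like receptor for oxidised LDL, averaged 0.442 ± 0.224 CPM in macrophages and 10.9 ± 6.06 CPM in monocytes (log2 fold change -4.62 ± 0.52, edgeR adjusted p = 3.32e-06), and Lrp8, the apolipoprotein E receptor 2, averaged 16 ± 1.27 CPM in macrophages and 145 ± 31.5 CPM in monocytes (log2 fold change -3.18 ± 0.16, edgeR adjusted p = 1.5e-09). Colec12, a collectin with scavenger activity, was 6.54-fold higher.

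Cholesterol export and storage genes were mostly higher, while genes of sterol synthesis were mostly lower. Of 17 targets of the liver X receptors (LXR, nuclear receptors that sense oxysterols) and efflux genes tested, 11 were called higher and 2 lower, with a median of 0.97. Abca1, the cholesterol exporter, had 617, 654, 483, 489 and 619.5 CPM in macrophages A to E, against 23.5 to 123 CPM in the 6 monocyte libraries (median 80.8 CPM). Apoe, the apolipoprotein that accepts that cholesterol, had 38896, 28007, 19446, 18338 and 27048 CPM in macrophages A to E, against 3334 to 5618 CPM in the 6 monocyte libraries (median 4097 CPM). Macrophage libraries C and D were the lowest of the 5 for both, and still above every monocyte library. Abca9, a lipid transporter of the same family, was 7.4-fold higher, and Scd1, the stearoyl-CoA desaturase, averaged 0.608 ± 0.427 CPM in macrophages and 20.8 ± 12.2 CPM in monocytes and fell (log2 fold change -5.1 ± 0.55, edgeR adjusted p = 2.24e-06). Of 23 lipid storage and fatty acid genes 15 were called higher and 4 lower. Soat1, which esterifies cholesterol for storage, and Lipa, which frees it in the lysosome, were 3.71-fold and 3.52-fold higher. Dgat2 and Lipe, of triglyceride synthesis and breakdown, were 71.4-fold and 3.77-fold lower in macrophages, with Dgat2 at 0.967 ± 0.308 against 69.4 ± 55.5 CPM. Fabp4, a fatty acid carrier, and Mgll, a monoglyceride lipase, rose (log2 fold change 2.11 ± 0.27, edgeR adjusted p = 9.32e-06 for Fabp4 and log2 fold change 2.33 ± 0.51, edgeR adjusted p = 0.001248 for Mgll), though the ranges of Mgll overlapped. The log2 fold changes without monocyte libraries 5 and 6 were 3.09 for Mgll and -5.14 for Dgat2, against -6.16 ± 0.58 for Dgat2 with all libraries. Without libraries 1 and 2 that of Scd1 was -4.42.

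In the sterol pathway, 18 of 23 genes were called lower and 4 higher, 11 and 1 past 2-fold, with a median of -1.14. Srebf2, the transcription factor that drives the pathway, had 105, 139.6, 136, 161 and 151 CPM in macrophages A to E, against 402 to 629 CPM in the 6 monocyte libraries (median 498 CPM), with a log2 fold change of -1.88 ± 0.15 (edgeR adjusted p = 9.93e-08). Idi1, the isopentenyl diphosphate isomerase, had 7.01, 7.26, 7.14, 6.65 and 7.25 CPM in macrophages A to E, against 40.9 to 64.2 CPM in the 6 monocyte libraries (median 54.5 CPM), with a log2 fold change of -2.94 ± 0.13 (edgeR adjusted p = 3.32e-10). Fdft1, squalene synthase, and Pmvk, phosphomevalonate kinase, fell, with log2 fold changes of -2.35 ± 0.1 and -2.14 ± 0.12. Dhcr7, which makes a final step to cholesterol, went the other way with 97.3 ± 13.1 against 34.8 ± 6.55 CPM in macrophages against monocytes (log2 fold change 1.48 ± 0.15, edgeR adjusted p = 9.86e-07). Scap and Tm7sf2 were also higher, with log2 fold changes of 1.01 ± 0.15 and 0.87 ± 0.15.

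**Figure D3:**
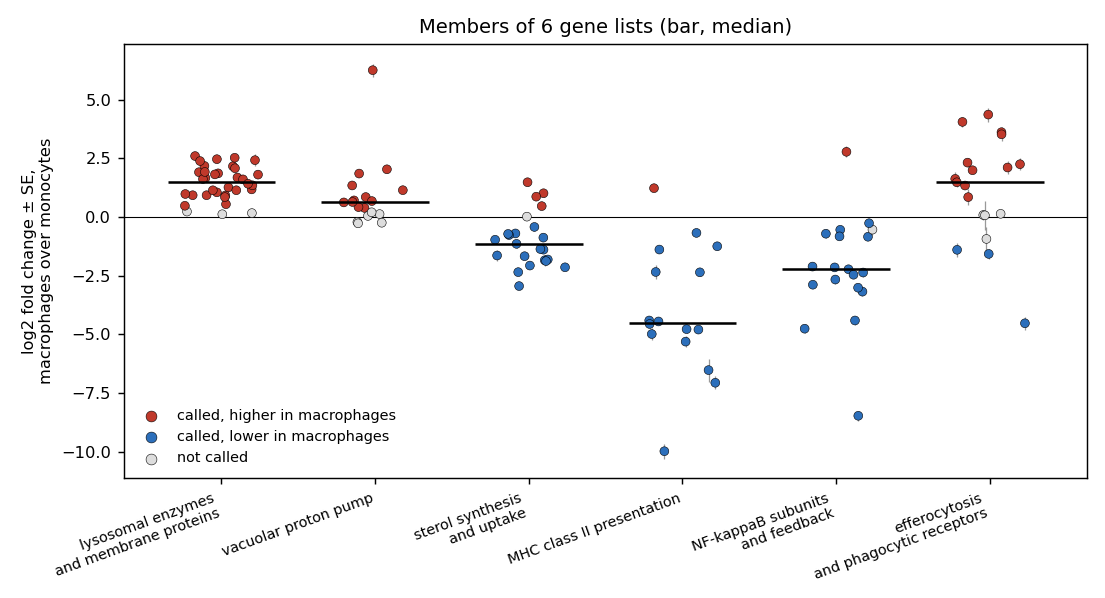
Log2 fold change of macrophages over monocytes with its SE for the tested genes of 6 lists, 1 point per gene, with a bar at the list's median (1.51, 0.63, -1.14, -4.51, -2.23 and 1.48 from left to right). Red points were called higher in macrophages, blue points lower, and grey points were not called; Atp6v0d2 is the high point of the proton pump and Ctss the 1 red point among the MHC class II genes.

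Genes of antigen presentation were lower in macrophages with few exceptions. Of 16 genes of MHC class II presentation, 15 were called lower, 13 past 2-fold, and 1 higher, with a median of -4.51, and they summed to 4967 to 6116 CPM in macrophages and 24317 to 34416 CPM in monocytes. Cd74, the invariant chain that guides class II molecules, had 592, 630.2, 831, 773 and 603 CPM in macrophages A to E, against 12873 to 19579 CPM in the 6 monocyte libraries (median 15859 CPM), with a log2 fold change of -4.56 ± 0.17 (edgeR adjusted p = 1.03e-10). H2-Eb2, a class II beta chain, had 0.0211, 0.0822, 0.0712, 0.263 and 0.135 CPM in macrophages A to E, against 91.8 to 134 CPM in the 6 monocyte libraries (median 123 CPM). Of the chains of the peptide-loading modulator H2-O, H2-Oa averaged 0.347 ± 0.147 CPM in macrophages and 47.3 ± 10.1 CPM in monocytes, and H2-Ob averaged 0.592 ± 0.38 CPM in macrophages and 55.1 ± 27.2 CPM in monocytes. The gene that rose was Ctss, the cathepsin that trims the invariant chain (4129 ± 422 against 1762 ± 138 CPM, log2 fold change 1.23 ± 0.1). Without monocyte libraries 1 and 2 it was no longer called past 2-fold. In these same libraries the dendritic and B cell marker sums given above were higher in every monocyte library, and their part was not tested.

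MHC class I genes were lower as well, with 14 of 17 called lower, 11 past 2-fold, and 2 higher. H2-Q7, a nonclassical class I chain, averaged 3.13 ± 0.808 CPM in macrophages and 531 ± 60.8 CPM in monocytes (log2 fold change -7.4 ± 0.21, edgeR adjusted p = 8.34e-12). H2-Q7 belongs to a family of near-identical copies, so its reads are uncertain. Psmb8 and Psmb9, subunits of the immunoproteasome that cuts peptides for class I, had log2 fold changes of -3.29 ± 0.14 and -3.25 ± 0.13. H2-D1, the most abundant gene of the list, averaged 5055 ± 655 CPM in macrophages and 9287 ± 1223 CPM in monocytes (log2 fold change -0.88 ± 0.13). The 2 that rose, Pdia3 and Calr, are chaperones of the endoplasmic reticulum (1.63-fold and 1.61-fold higher).

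NF-kappaB genes followed the same direction. Of 19 subunits, inhibitors and feedback genes 17 were called lower and 1 higher, 12 past 2-fold lower, with a median of -2.23. Relb (ENSMUSG00000002983, chr7:19606217-19629438, reverse strand), the subunit of the noncanonical arm, had 78.9, 66, 53.5, 61.6 and 74.3 CPM in macrophages A to E, against 1375 to 2172 CPM in the 6 monocyte libraries (median 1891 CPM), with a log2 fold change of -4.76 ± 0.18 (edgeR adjusted p = 9.18e-11). Traf1, an adaptor of TNF receptors, had 3.95, 2.58, 4.2, 4.52 and 4.13 CPM in macrophages A to E, against 1106 to 1613 CPM in the 6 monocyte libraries (median 1383 CPM), with a log2 fold change of -8.47 ± 0.2 (edgeR adjusted p = 2.45e-12). Cd40, a TNF-family receptor that feeds the noncanonical arm, averaged 4.06 ± 1.25 CPM in macrophages and 86.4 ± 12.9 CPM in monocytes (log2 fold change -4.41 ± 0.21, edgeR adjusted p = 6.21e-10). The gene that rose was Ikbke, a kinase related to those of the complex (70.0 ± 18.5 against 10.2 ± 3.67 CPM, log2 fold change 2.78 ± 0.24).

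Chemokines and cytokines changed in both directions. Of 18 chemokine ligands tested 10 were called lower and 3 higher, and without monocyte libraries 5 and 6 these counts were 6 and 5. Ccl5, which draws T cells and monocytes, had 3.06, 2.22, 1.12, 1.1 and 2.25 CPM in macrophages A to E, against 662 to 1096 CPM in the 6 monocyte libraries (median 953 CPM), with a log2 fold change of -8.84 ± 0.34 (edgeR adjusted p = 1.03e-10). Ccl22, a ligand made by mature dendritic cells, averaged 2.1 ± 1.06 CPM in macrophages and 136 ± 32.9 CPM in monocytes, and Cxcl16, a membrane-bound chemokine and scavenger receptor, averaged 379 ± 68.4 CPM in macrophages and 1700.0 ± 231 CPM in monocytes. Cxcl14 went the other way (87.6 ± 22.1 against 7.5 ± 1.6 CPM, log2 fold change 3.55 ± 0.18). Ccl4 was also higher (log2 fold change 1.18 ± 0.32). Of 13 chemokine receptors 8 were called lower and 4 higher. Cx3cr1, the fractalkine receptor of patrolling monocytes and tissue macrophages, rose, with 209.8, 189.5, 182, 263 and 459 CPM in macrophages A to E, against 43.7 to 122 CPM in the 6 monocyte libraries (median 88.9 CPM). Cxcr5, a receptor of follicular B cells, averaged 0.00548 ± 0.0123 CPM in macrophages and 26.2 ± 11.4 CPM in monocytes.

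Of 25 cytokines and cytokine inhibitors, 12 were called lower and 6 higher, with a median log2 fold change of -0.84. Their summed level was higher in every macrophage library, at 3121 to 3876 CPM in macrophages and 781 to 1054 CPM in monocytes. Much of the macrophage sum was Spp1, which averaged 1967 ± 248 CPM in macrophages and 27.6 ± 17.6 CPM in monocytes. The sum is therefore not the direction of most members. Il12b, the p40 chain of interleukin 12, had 0.0844, 0.11, 0.0475, 0.526 and 0.18 CPM in macrophages A to E, against 51.1 to 165 CPM in the 6 monocyte libraries (median 82.2 CPM). Il1b had 7.72, 4.3, 2.73, 3.13 and 4 CPM in macrophages A to E, against 69.9 to 162 CPM in the 6 monocyte libraries (median 112 CPM), with no overlap (log2 fold change -4.65 ± 0.31, edgeR adjusted p = 1.88e-08). Il15 was 4.57-fold lower. Igf1, a growth factor made by many macrophages, had 713, 782, 818, 781 and 688 CPM in macrophages A to E, against 50.1 to 124 CPM in the 6 monocyte libraries (median 91.5 CPM), with a log2 fold change of 3.13 ± 0.22 (edgeR adjusted p = 4.05e-08). Vegfa, the angiogenic factor, averaged 70.2 ± 19.9 CPM in macrophages and 13.2 ± 2.81 CPM in monocytes (log2 fold change 2.41 ± 0.2, edgeR adjusted p = 1.55e-07). Interferon-response genes fell in 18 of 31 cases and rose in 5. Mx1, Gbp5 and Gbp2, all induced by interferons, had log2 fold changes of -5.33 ± 0.3, -5.23 ± 0.28 and -5.13 ± 0.26. Oas3, Ifi204 and Bst2, of the same list, were higher, by 2.3-fold, 2.18-fold and 1.72-fold.

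Receptors that sense microbes were divided, with 9 of 25 called higher and 10 lower. Most endosomal receptors of nucleic acids rose: Tlr7 averaged 126 ± 17.8 CPM in macrophages and 20.1 ± 4.17 CPM in monocytes, Tlr8 averaged 138 ± 10.5 CPM in macrophages and 17 ± 5.3 CPM in monocytes, and Tlr3 averaged 12.7 ± 1.64 CPM in macrophages and 0.778 ± 0.381 CPM in monocytes. Their log2 fold changes were 2.64 ± 0.15, 3.02 ± 0.21 and 4.03 ± 0.28. Tlr13, which reads bacterial ribosomal RNA, was 2.17-fold higher. Tlr9, the receptor of CpG DNA that B cells also carry, was the exception, with 1 ± 0.251 against 4.7 ± 1.47 CPM in macrophages against monocytes (log2 fold change -2.23 ± 0.27), and is named for that after its value was seen. Tlr1, a surface receptor for lipopeptides, and Nod2, a cytosolic one for peptidoglycan fragments, fell, with log2 fold changes of -1.89 ± 0.21 and -3.39 ± 0.22. Cd14, the co-receptor for lipopolysaccharide, had 569.9, 443, 364, 413 and 470.2 CPM in macrophages A to E, against 48.4 to 137 CPM in the 6 monocyte libraries (median 99.1 CPM), with a log2 fold change of 2.26 ± 0.25 (edgeR adjusted p = 3.23e-06).

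Genes for clearing dying cells were mostly higher. Of 19 efferocytosis and phagocytic receptor genes 12 were called higher, 11 past 2-fold, and 3 lower, with a median of 1.48. The bridging proteins that link phosphatidylserine to receptors rose most. Gas6 had 458, 459, 455, 467 and 458 CPM in macrophages A to E, against 15.1 to 42.2 CPM in the 6 monocyte libraries (median 27.4 CPM), nearly the same in the 5 macrophage libraries. Mfge8 had 503, 497, 633, 651 and 407 CPM in macrophages A to E, against 34.9 to 49.4 CPM in the 6 monocyte libraries (median 45.3 CPM), and Pros1 averaged 83.9 ± 11.9 CPM in macrophages and 4.07 ± 1.97 CPM in monocytes. Their log2 fold changes were 4.05 ± 0.22, 3.61 ± 0.15 and 4.36 ± 0.30. Mertk, the receptor for Gas6 and Pros1, had 294, 319, 295, 270.3 and 289 CPM in macrophages A to E, against 25.2 to 94.4 CPM in the 6 monocyte libraries (median 75.5 CPM), with a log2 fold change of 2.11 ± 0.26 (edgeR adjusted p = 8.8e-06), and Sirpa, the receptor for CD47, was 3.98-fold higher. The 3 genes that fell were Timd4, Abca7 and Cd300lf, with log2 fold changes of -4.53 ± 0.27, -1.57 ± 0.2 and -1.4 ± 0.30.

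Complement and Fc receptor genes were mostly higher. Of 17 complement genes 13 were called higher and 3 lower. C1qb, a chain of the first component, had 2731, 2060.3, 1689, 1809 and 2202 CPM in macrophages A to E, against 231 to 849 CPM in the 6 monocyte libraries (median 334 CPM), with the highest monocyte value in library 1. C3ar1, the receptor for the C3a fragment, averaged 1688 ± 122 CPM in macrophages and 138 ± 35.7 CPM in monocytes (log2 fold change 3.61 ± 0.17, edgeR adjusted p = 6.9e-10), and Cd93, a receptor of myeloid and endothelial cells, was 7.52-fold higher. Cd55, which speeds the decay of the C3 convertases, averaged 1.18 ± 0.502 CPM in macrophages and 14.4 ± 7.41 CPM in monocytes and fell, as did C4b and C3 (log2 fold changes -3.6 ± 0.42, -3.85 ± 0.71 and -1.53 ± 0.49). Without monocyte libraries 5 and 6, C3 was no longer called (log2 fold change -0.68), and C4b had -2.66. Of 9 Fc receptors 7 were called higher, among them Fcgr3, a low-affinity IgG receptor, with 1281, 1054, 958, 935 and 1077 CPM in macrophages A to E, against 173 to 570.0 CPM in the 6 monocyte libraries (median 226 CPM). Without monocyte libraries 5 and 6, which had the 2 highest monocyte values, its log2 fold change was 2.38, in place of 1.77. Fcmr and Fcer2a, which B cells carry, were the 2 that fell. C-type lectins and Siglecs were near the background, with 5 of 21 called higher and 6 lower: Mrc1, the mannose receptor, was 4.88-fold higher, and Siglecg, a Siglec of B cells, averaged 0.0713 ± 0.06 CPM in macrophages and 54.4 ± 16.6 CPM in monocytes.

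Transcription factors of the myeloid lineage moved both ways, 13 of 28 called higher and 12 lower. Maf, which supports macrophage identity, had 92.7, 103, 80.2, 70.4 and 96.3 CPM in macrophages A to E, against 10.6 to 16.9 CPM in the 6 monocyte libraries (median 13.7 CPM), with a log2 fold change of 2.67 ± 0.14 (edgeR adjusted p = 1.58e-09). Cebpa, of early myeloid differentiation, averaged 284 ± 49.3 CPM in macrophages and 67.6 ± 14.7 CPM in monocytes (log2 fold change 2.07 ± 0.17, edgeR adjusted p = 1.71e-07). Irf4, a factor of dendritic and B cells, averaged 2.14 ± 0.56 CPM in macrophages and 29.4 ± 8.85 CPM in monocytes (log2 fold change -3.78 ± 0.27, edgeR adjusted p = 4.2e-08). Cebpe, of granulocyte maturation, averaged 0.372 ± 0.132 CPM in macrophages and 38.3 ± 34.9 CPM in monocytes, with neutrophil markers higher in the same monocyte libraries. Its log2 fold change was -6.67 ± 0.71, and -5.4 without libraries 5 and 6, the 2 highest. In the colony-stimulating factor axis 2 of 9 genes were called higher and 6 lower: Csf1r rose (log2 fold change 2.45 ± 0.2, edgeR adjusted p = 1.84e-07) while the gene of its ligand, Csf1, averaged 2.62 ± 0.611 CPM in macrophages and 11.2 ± 4.19 CPM in monocytes (log2 fold change -2.1 ± 0.27, edgeR adjusted p = 1.12e-05).

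PMA acts through the protein kinase C family, whose genes differed in direction. Which of the isoforms bind PMA is not read from these data. Prkcd, the most abundant, had 495, 498, 503, 531 and 527 CPM in macrophages A to E, against 439.6 to 603 CPM in the 6 monocyte libraries (median 461 CPM), and these ranges overlap (log2 fold change 0.06 ± 0.1, edgeR adjusted p = 0.6099). Prkch and Prkci were higher, with 142 ± 14.1 against 44.8 ± 5.36 CPM and 59 ± 3.67 against 19.5 ± 5.04 CPM (log2 fold changes 1.67 ± 0.11 and 1.6 ± 0.17). Prkcb was 1.39-fold higher (263 to 288 CPM in macrophages and 159 to 253 CPM in monocytes). Prkce and Prkca were scarce and called lower, at 2.1 to 3.84 CPM in macrophages and 6.08 to 9.49 CPM in monocytes for Prkce, and at 1.16 to 2.06 CPM in macrophages and 1.6 to 2.69 CPM in monocytes for Prkca, whose call was lost in 7 of 20 alternatives. Of the exchange factors with a diacylglycerol-binding domain, Rasgrp1 averaged 0.684 ± 0.348 CPM in macrophages and 57.1 ± 15.8 CPM in monocytes, and Rasgrp4 averaged 0.867 ± 0.256 CPM in macrophages and 26.8 ± 23 CPM in monocytes (log2 fold change -4.94 ± 0.6, or -3.78 without monocyte libraries 5 and 6, the 2 highest). Over the list of protein kinase C and AP-1 genes 4 of 21 were called higher and 11 lower. Without monocyte libraries 5 and 6, 7 were called higher.

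Adhesion and matrix genes changed in both directions. Of 27 integrins, selectins and adhesion molecules 11 were called higher and 10 lower. Itga6 and Itgb5, integrin chains for laminin and for vitronectin, were 13.9-fold and 4.98-fold higher (324 ± 68 against 23.3 ± 7.89 CPM for Itga6, 1976 ± 418 against 396 ± 83.9 CPM for Itgb5). Selplg, the ligand of the selectins, averaged 404 ± 45.5 CPM in macrophages and 2100.3 ± 203 CPM in monocytes (log2 fold change -2.38 ± 0.12, edgeR adjusted p = 1.15e-09). Itgam, the CD11b chain, had 78, 84.3, 78.6, 77.3 and 87.5 CPM in macrophages A to E, against 27.6 to 132 CPM in the 6 monocyte libraries (median 39.1 CPM) and was not called (log2 fold change 0.36 ± 0.37). Its monocyte values fell into 2 sets, with libraries 5 and 6 above all macrophages, and without these it was called with a log2 fold change of 1.22. Itgax, the CD11c chain, was 2.78-fold higher.

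Of 22 matrix proteins, proteases and inhibitors 9 were called higher and 9 lower. Mmp12, the macrophage elastase, had 1146, 1550.1, 2446, 1867 and 972 CPM in macrophages A to E, against 81.2 to 144 CPM in the 6 monocyte libraries (median 103 CPM), with a log2 fold change of 3.91 ± 0.25 (edgeR adjusted p = 1.18e-08). Mmp9, a gelatinase also stored by neutrophils, had 6.06, 7.01, 4.04, 1.46 and 1.26 CPM in macrophages A to E, against 581 to 3560.2 CPM in the 6 monocyte libraries (median 675 CPM), with the 2 highest values in monocyte libraries 5 and 6. Its log2 fold change was -8.59 ± 0.84, and -7.34 without those 2 libraries. Mmp25, a membrane-type protease, was even among monocytes (0.731 ± 0.602 against 630.1 ± 104 CPM). Timp2, a protease inhibitor, was 4.99-fold higher. Of 12 osteoclast and cell fusion genes 5 were called higher and 4 lower. Dcstamp, needed for fusion, had 6.63, 30.8, 66.9, 55.5 and 20.7 CPM in macrophages A to E. The 6 monocyte libraries held 0.815 to 3.02 CPM of it (median 1.95 CPM). Atp6v0d2 and Itgav also rose (log2 fold changes 6.256 ± 0.275 and 1.625 ± 0.277), while Acp5 and Car2, of bone resorption, fell (-1.43 ± 0.19 and -6.42 ± 0.47).

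The genes of macropinocytosis, the uptake named in the study's title, were called higher about as often as all genes (28.5%) and lower in a smaller share (35.1% over all genes). Of 34 genes of macropinocytosis and membrane ruffling 10 were called higher and 6 lower, 5 and 2 past 2-fold, with a median of 0.16. Pak1, a kinase of ruffling, had 36.9, 38.9, 37.6, 37.8 and 40.0 CPM in macrophages A to E, against 25.2 to 40.1 CPM in the 6 monocyte libraries (median 30.1 CPM) and was not called (log2 fold change 0.26 ± 0.12, edgeR adjusted p = 0.07786). Rab34, a GTPase of macropinosomes, averaged 27.3 ± 3.6 CPM in macrophages and 2.31 ± 0.904 CPM in monocytes (log2 fold change 3.56 ± 0.25, edgeR adjusted p = 3.75e-08). Dock1 and Myo1e were 4.76-fold and 4.67-fold higher, and Swap70 and Ezr 8.26-fold and 3.32-fold lower. Panx1, an ATP-release channel, had 32.5 to 47.5 CPM in macrophages and 35.2 to 42.5 CPM in monocytes and was not called (log2 fold change -0.02 ± 0.11).

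In iron handling 12 of 19 genes were called higher and 5 lower. Fth1, the ferritin heavy chain, had 49036, 44394, 39406, 43209 and 41278 CPM in macrophages A to E, against 10935 to 18417 CPM in the 6 monocyte libraries (median 16471 CPM), with a log2 fold change of 1.49 ± 0.14 (edgeR adjusted p = 7.37e-07), while Ftl1, the light chain, averaged 8352 ± 641 CPM in macrophages and 9682 ± 1221 CPM in monocytes and was not called (edgeR adjusted p = 0.1301). Trf, transferrin, was 4.49-fold higher. Hmox1, which breaks down heme, had 1034, 878, 647, 658 and 908 CPM in macrophages A to E, against 1288 to 2035 CPM in the 6 monocyte libraries (median 1399.6 CPM) and was lower (log2 fold change -0.85 ± 0.16, edgeR adjusted p = 0.000346). Slc40a1, the iron exporter, had 1071 to 1366 CPM in macrophages and 648 to 1087 CPM in monocytes and was higher (log2 fold change 0.45 ± 0.13, edgeR adjusted p = 0.008784). Globin transcripts were also higher in the monocytes than in the macrophages, as given above, and their part was not tested. Among the monocytes Hmox1 was highest in library 1 (2035 CPM) and lowest in library 2 (1288 CPM). These were also the 2 libraries lowest in Hbb-bs, at 291 and 144 CPM. They were compared after their values were seen, and how the 2 genes go together was not tested.

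Lists of energy metabolism differed from one another, beside 28.5% of genes called higher and 35.1% lower over all genes tested. None of 30 subunits of oxidative phosphorylation passed 2-fold, 5 were called higher and 4 lower, and the median was 0.07. Leaving out monocyte libraries 5 and 6, 8 were called higher. Of 12 mitochondrially encoded genes 7 were called lower and none higher, with a median of -1.09. Among those lower was mt-Nd2 (log2 fold change -1.49 ± 0.24, edgeR adjusted p = 9.17e-05). In glycolysis and hypoxia 13 of 24 were called higher and 4 lower, with a median of 0.4. Hk2 and Slc2a1, a hexokinase and a glucose transporter, were 3.28-fold and 3.02-fold higher. Slc2a3, the glucose transporter abundant in neutrophils, averaged 5.42 ± 1.03 CPM in macrophages and 212 ± 178 CPM in monocytes, and Pfkfb3, which drives glycolytic flux, averaged 76.3 ± 11 CPM in macrophages and 1094 ± 357 CPM in monocytes (log2 fold change -3.84 ± 0.23, edgeR adjusted p = 8.45e-09). Without monocyte libraries 5 and 6 the log2 fold change of Slc2a3 was -4.23, against -5.29 ± 0.56 with them. Of 8 NADPH oxidase genes 1 was called higher (2 without libraries 5 and 6) and 4 lower: Cybb, the catalytic chain, averaged 1576 ± 53.8 CPM in macrophages and 492.7 ± 200.4 CPM in monocytes and rose (log2 fold change 1.68 ± 0.23), and its partner Ncf4 fell (log2 fold change -1.19 ± 0.14).

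Stress, signalling and cell cycle lists held genes of both signs. Of 28 antioxidant genes of the NRF2 factor 7 rose and 7 fell (11 rose without monocyte libraries 5 and 6), with Cat, catalase, 2.71-fold higher, and Nqo1 and Slc7a11 10.2-fold and 5.85-fold lower. Of 20 genes of endoplasmic reticulum and integrated stress 8 were called higher and 9 lower. Ppp1r15a and Herpud1 fell (log2 fold changes -3.47 ± 0.2 and -3.71 ± 0.21), while the chaperones Hspa5 and Hsp90b1 were 1.52-fold and 2.03-fold higher. Among immediate-early and heat-shock genes 11 of 19 fell and 3 rose, with Dusp1, Hspa1a and Hspa1b lower and Egr1 and Egr2 higher. Hspa1a and Hspa1b are near-identical copies, so their reads cannot be split with certainty. Of 34 cell cycle genes 12 fell and 7 rose: E2f1 averaged 58 ± 5.23 CPM in macrophages and 11.2 ± 2.04 CPM in monocytes (log2 fold change 2.38 ± 0.13, edgeR adjusted p = 3.11e-09), Ccnd2 averaged 2.67 ± 1.08 CPM in macrophages and 43.5 ± 13.2 CPM in monocytes (log2 fold change -4.03 ± 0.3, edgeR adjusted p = 7.39e-08), and Cdk1, at 10.9 ± 0.755 against 3.74 ± 2.7 CPM, was also higher (log2 fold change 1.54 ± 0.36, or 2.29 without monocyte libraries 5 and 6).

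Of 18 purinergic receptors and ectonucleotidases 9 were called higher and 5 lower. P2rx7 and P2ry6, receptors of ATP and UDP, and Entpd1, which cleaves ATP, were 6.56-fold, 6.26-fold and 3.92-fold higher. Adora2a, an adenosine receptor, averaged 1.08 ± 0.34 CPM in macrophages and 195 ± 37.7 CPM in monocytes, and Nt5e, which makes adenosine, was 16.6-fold lower. Of 18 prostaglandin and leukotriene genes 6 rose and 7 fell. Tbxas1, the thromboxane synthase, was 3.5-fold higher, and Alox5, the 5-lipoxygenase, and Ltb4r1, the leukotriene B4 receptor, were 9.49-fold and 303-fold lower, with wide spreads among the monocytes (14.6 ± 4.39 against 139 ± 117 CPM for Alox5 and 0.25 ± 0.0988 against 75.6 ± 68.7 CPM for Ltb4r1). Leaving out monocyte libraries 5 and 6 gave -2.13 for Alox5, -6.98 for Ltb4r1 and -3.21 for Nt5e, against -3.25 ± 0.52, -8.24 ± 0.77 and -4.05 ± 0.48 with all libraries.

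**Figure D4:**
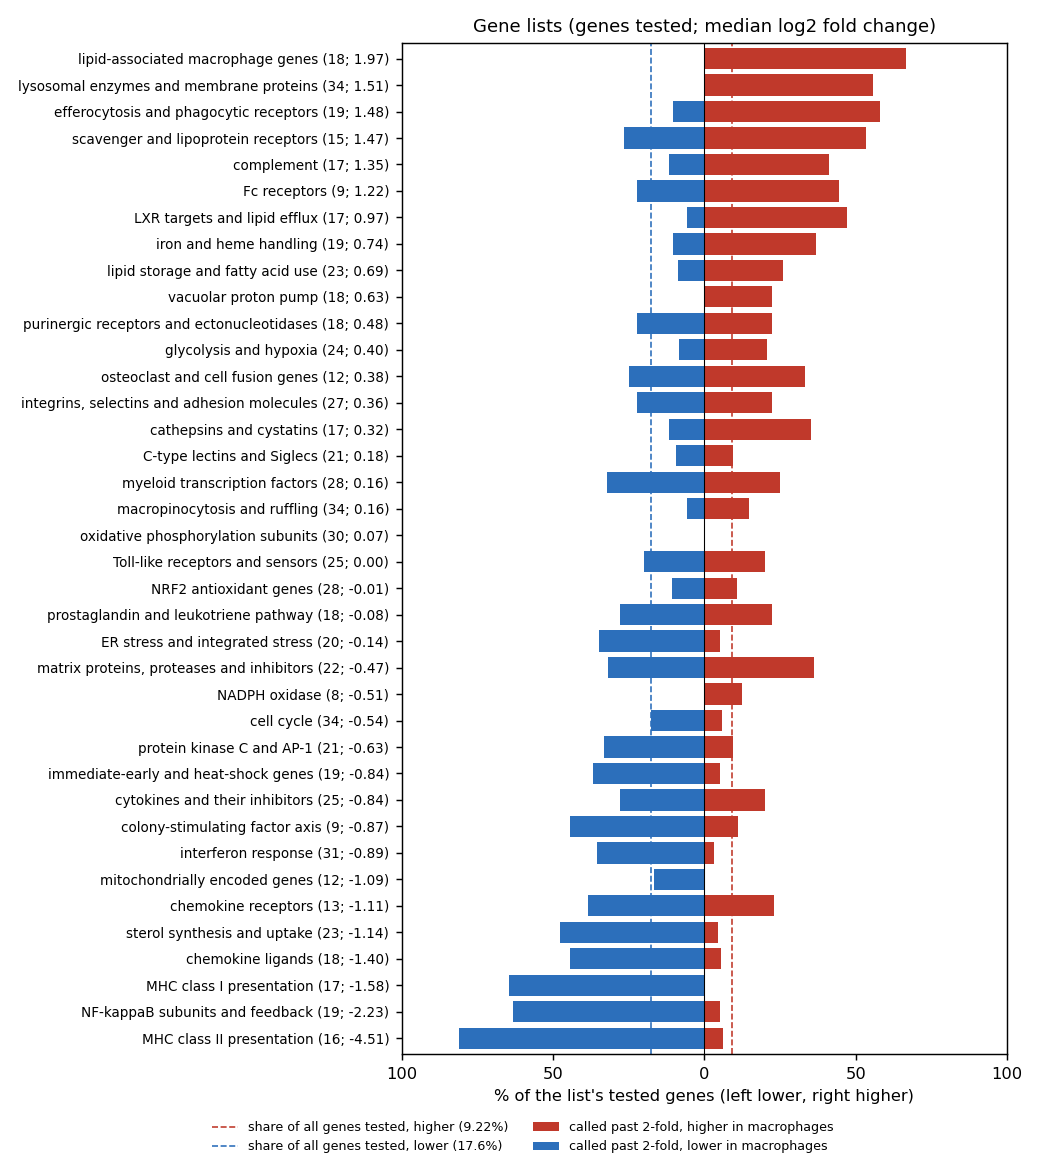
Share of each list's tested genes called past 2-fold higher (red, right) or lower (blue, left) in macrophages, with the number tested and the median log2 fold change beside each name; dashed lines mark the shares over all genes tested, 9.22% higher and 17.6% lower. MHC class II, NF-kappaB and MHC class I lists reach furthest left, and the lipid-associated, efferocytosis and lysosomal lists furthest right.

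By level per length, the most abundant named transcripts also differed. In deposited TPM, Lyz2, the lysozyme of myeloid cells, averaged 50696 ± 4618 TPM in macrophages and 13384 ± 6679 TPM in monocytes. Its CPM was 29269, 23713, 21616, 20549 and 25771 CPM in macrophages A to E, against 3521 to 13079 CPM in the 6 monocyte libraries (median 4690.2 CPM), and without monocyte libraries 5 and 6 its log2 fold change was 2.51, in place of 1.79 ± 0.34. Fth1, Apoe, Ctsd, Psap, Ftl1 and Ctsb completed the named top of the macrophages, and Tmsb4x, Cd74, Actb, Ftl1, S100a9, Fth1, S100a8 and Ccr7 that of the monocytes. Actb, beta-actin, averaged 9379.9 ± 1003 TPM in macrophages and 19346 ± 3006 TPM in monocytes, and Tmsb4x, an actin-binding peptide, 9427 ± 1132 TPM in macrophages and 31066 ± 3815 TPM in monocytes. Their log2 fold changes in counts were -1.11 ± 0.14 and -1.78 ± 0.17. The feature with the highest TPM in both groups was Gm23935, annotated as a miRNA of 57 bases, with Mir6236 of 123 bases and Gm24270 of 57 bases also among the top 10 in macrophages. So short a feature gains a high value per length from few reads, and none of the 3 is read as a level of a mature miRNA.

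**Figure D5:**
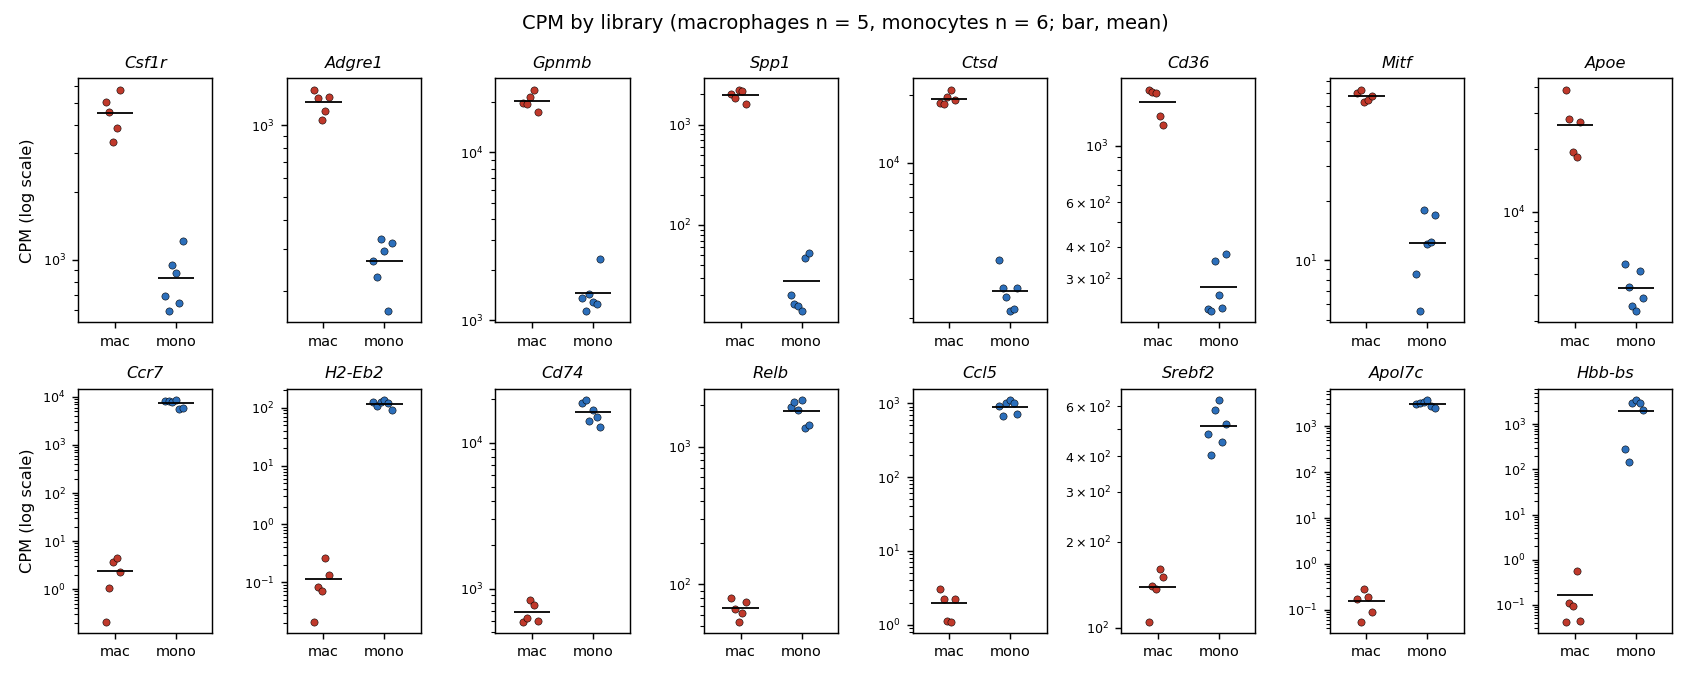
CPM (log scale, each panel with its own range) of 16 genes in the 5 macrophage libraries (red, left) and the 6 monocyte libraries (blue, right), with a bar at the mean. The groups do not overlap in any panel, but the 16 genes were chosen for display, so this is not a result. Over all genes tested it held for 22.1% in the direction of higher and 26.7% in the direction of lower. For Hbb-bs the 2 lowest monocyte libraries, 1 and 2, lie at 291 and 144 CPM.

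The same contrast was available in other libraries, 6 of macrophages and 5 of monocytes given ox-LDL, which share no sample with the vehicle libraries. There 10344 of 15825 genes were called (65.4%; 30.3% higher and 35% lower), 1572 past 2-fold higher (9.93%) and 2608 past 2-fold lower (16.5%). Of the 1502 genes past 2-fold higher with vehicle, 1226 were past 2-fold higher with ox-LDL as well, 81.6% of the vehicle genes and 78% of the ox-LDL genes. Of the 2865 past 2-fold lower with vehicle, 2326 were lower there too, 81.2% and 89.2%. No gene past 2-fold with vehicle was called in the opposite direction with ox-LDL.

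The difference between the contrasts was tested over 17466 genes, and 11 were called (0.063%, edgeR quasi-likelihood test; 0.0573% higher and 0.00573% lower), with 1261 at an unadjusted p under 0.05 (7.22%). Genes of the sterol pathway made up 7 of the 11, all with a higher log2 fold change of macrophages over monocytes with vehicle than with ox-LDL. Idi1 had -2.94 with vehicle and -4.41 with ox-LDL, and Sqle, squalene epoxidase, -1.37 and -2.78, differences of 1.45 ± 0.26 and 1.4 ± 0.27 (edgeR adjusted p = 0.03538 and 0.04444). Insig1, which holds the sterol sensor in the endoplasmic reticulum, had 0.46 with vehicle and -0.71 with ox-LDL (difference 1.16 ± 0.19). Msmo1, Cyp51 and Stard4 had differences of 1.19 ± 0.21, 1.08 ± 0.2 and 0.95 ± 0.18. Zfp217, a zinc-finger factor outside that pathway, was the 1 gene with a lower value with vehicle, -1.77 against -0.57, a difference of -1.21 ± 0.22. Hist1h4c, Rn7sk and Gm24447 were also among the 11, with differences of 1.95 ± 0.35, 2.22 ± 0.36 and 2.12 ± 0.39. Apart from Idi1, the genes of this comparison were named after their values were seen. The count depends on few libraries: leaving out 1 library gave 1 to 44, and leaving out monocyte libraries 5 and 6 with vehicle and 10 and 11 with ox-LDL, the ones high in neutrophil markers, gave 129.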

How the data were processed

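The 22 RNA-seq libraries were made from polyA RNA with a SMARTer Ultra Low kit from 10 ng of total RNA, per the labels' protocols. The authors deposited gene counts for each library, with CPM, FPKM and TPM beside the counts, and, per the submitters' processing notes, used STAR 2.7.9a, Subread featureCounts 2.0.3 and GRCm38. Whether strand was used in counting is not given in the sources used here, so overlapping antisense genes cannot be told apart. The deposited counts of macrophages A to E and monocytes 1 to 6 were filtered with filterByExpr, scaled by TMM and fitted with edgeR 4.0.16 (quasi-likelihood, R 4.3.3), with adjusted p under 0.05 over all 16288 genes as a call and glmTreat for changes past 2-fold. The CPM values in the text were computed from these counts and TMM library sizes; the deposited TPM ranked genes by level per length, and the deposited CPM and FPKM were only checked. Alternatives used limma 3.58.1 (voom) and DESeq2 1.42.0, other scalings and filters, 1 fit over all 4 groups, and fits without single libraries or without those that stood apart in neutrophil or erythroid markers. The scripts were tested on simulated data first, with Python 3.11.15, NumPy 2.4.6, pandas 2.3.3, SciPy 1.17.1 and Matplotlib 3.10.9 for the rest.

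Genes were named by rule: the 12 largest rises and falls at a mean of at least 5 CPM with groups that did not overlap, up to 3 per direction and the most abundant gene of each of 54 lists (870 genes, 2 not matched), a preset few, and the 10 highest TPM of each group; others are said to be chosen after their values were seen. The comparison and the lists were chosen with earlier results of these data known. Counting intervals and floors cover counting error only. Some genes that met the rule are not reported here.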

Additional observations from a re-analysis of the deposited data

Results flagged for a closer look

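Among 502 sets of values of 1 group of libraries (the genes named, the marker sums and the library measures), 38 held a library far from the others by Dixon's test (7.57%, where chance gives about 5%). The 38 include sets with reads in a single library, which the test flags whatever the value. The chance share does not apply to those sets. Of the monocytes, library 6 stood high for Psap (7456.6 CPM), Gpnmb (2308.6 CPM), Tfe3 (202.9 CPM), Tlr13 (287.1 CPM), Cd93 (108.4 CPM), C3 (330.3 CPM), C4b (28.75 CPM), Hk2 (52.69 CPM) and the summed nonclassical monocyte markers (1025.8 CPM). Library 5 stood low for Sirpa (629.8 CPM). Library 1 stood high for Ctsf (6.505 CPM) and Hmox1 (2035.0 CPM). Library 2 stood high for Myo1e (87.93 CPM) and Hspa5 (776.9 CPM) and low for Actb (13391.6 CPM).

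Of the macrophages, library A stood high for Ctss (4863.1 CPM), Pmvk (10.76 CPM), Tm7sf2 (14.12 CPM), Gm23935 (2732.6 CPM), Gm24270 (316.3 CPM) and Fcmr (0.1266 CPM), and low for Cd93 (178.4 CPM) and Dock1 (84.07 CPM). Library D stood high for Naglu (577.9 CPM), Il12b (0.5263 CPM), Hbb-bs (0.5502 CPM), Hba-a2 (0.4545 CPM) and Retnlg (0.07176 CPM), and low for Mrc1 (171.3 CPM). Library E stood high for Itgb5 (2697.0 CPM), Abca7 (79.44 CPM), Ctse (3.726 CPM), Ptk6 (0.02245 CPM) and the nonclassical monocyte sum (1157.3 CPM). Library B stood high for Cd3e (0.0548 CPM) and Cxcr5 (0.0274 CPM), which had no read in the other 4. Fcmr, Retnlg and Ptk6 likewise had reads in a single macrophage library. For these genes any read at all is flagged, so no weight is put on the flag. Library C held the most genes with a read (21525) and the highest sum of NK cell markers (0.2373 CPM).

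The contrast of macrophages with monocytes differed between vehicle and ox-LDL for 11 genes (edgeR, adjusted p under 0.05). The log2 differences, vehicle minus ox-LDL, included 1.45 for Idi1, 1.4 for Sqle, 1.19 for Msmo1, 1.16 for Insig1, 1.08 for Cyp51, 0.95 for Stard4, -1.21 for Zfp217, 1.95 for Hist1h4c, 2.12 for Gm24447 and 2.22 for Rn7sk.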

How the results depend on the processing

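No paired analysis was possible because macrophages are lettered and monocytes numbered, so the groups share no replicate label. The vehicle counts stayed within 1.5 times under all 20 alternatives, and of 231 genes named in the text 226 kept their call in every one. C3 and Prkca lost it in some (C3 without monocyte libraries 5 and 6 and in the fit over all 4 groups), while Itgam, Pak1 and Ftl1, not called, were called in some, and none reversed. Of 4320 counts over lists 4147 stayed within 1.5 times. The higher share of calls was 44.8%, with 40.3% to 49.0% over the alternatives, and without a filter the median log2 fold change moved by -0.269. The 11 genes that differed between the vehicle and ox-LDL contrasts were less stable: 5 on total counts, 60 with DESeq2, 129 without the libraries high in neutrophil markers and 4 without those low in erythroid markers. Leaving out 1 library gave 1 to 44 (44 without ox-LDL monocyte library 10, 1 without ox-LDL monocyte library 8 or 9 or macrophage A). The cause was not tested. A gene with no read in macrophages is bounded only by its floor.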
